A study of Homo sapiens with 11 samples.

Results

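The genes described here are 10 human SR protein genes, namely SRSF1, SRSF2, SRSF3, SRSF4, SRSF5, SRSF6, SRSF7, SRSF9, TRA2A and TRA2B. Every probe set of the array whose only gene symbol was 1 of these 10 was taken, with the older symbols of the SFRS series counted, and TRA2B listed under its older name SFRS10. They are 10 of 14496 genes tested, and they hold 200 of the 220978 probe sets used. The array carried 218 of their probe sets, of which 16 lay below the floor for dim probe sets and 2, both of SRSF2, lacked an estimate on some array. No member probe set was shared with another gene symbol.

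SR proteins are splicing factors that carry RNA recognition motifs and a tail rich in arginine and serine. They bind enhancer sequences in exons and help the U1 and U2 snRNPs recognise the neighbouring splice sites. Kinases of the SRPK and CLK families phosphorylate the tail. Most SR genes also limit their own protein by including a so-called poison exon or splicing an intron of the 3′ UTR, which sends the transcript to nonsense-mediated decay. Tat-SF1, encoded by HTATSF1, is a U2 snRNP-associated protein first known as a cofactor of HIV-1 Tat, and the study asked which transcripts and exons change when it is depleted.

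The knockdown group held 3 arrays of Tat-SF1 shRNA A and 3 of Tat-SF1 shRNA B, and the control group held 3 arrays of a GFP shRNA and 2 of an Empty Vector. All 11 came from T-REx-293, a line made from human embryonic kidney HEK293 cells, in which tetracycline switches on the construct. Whether each construct was in 1 clone or a pool of cells is not given in the sources used here. Every culture, controls included, stably carried a GFP plasmid and had received 2.5 µg/mL tetracycline for 72 h. Replicates are biological according to the series design, which left out Empty Vector replicate 3 for quality. Total RNA was hybridised to Affymetrix Human Exon 1.0 ST arrays, on which a probe set is a small group of probes within 1 exon or part of one. The gene value is the median of a gene's probe sets on an array, and the exon index is a probe set's value minus its gene value on the same array, both on the log2 scale. Values of different probe sets or genes are not set against each other, because each probe has its own brightness.

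HTATSF1 itself fell, with a gene value of 8.21 ± 0.057 (SD, n = 6) in knockdown arrays and 8.503 ± 0.12 (SD, n = 5) in controls, a difference of -0.30 (limma adjusted p = 0.0483), and all 14 of its used probe sets were lower. That call was lost in 14 of 21 alternative settings, where the difference lay between -0.31 and -0.25 and adjusted p reached 0.353 when the suffix of the array name was fitted as a block. The suffix stands on 4 knockdown arrays and on no control, and what it marks is not given in the sources used here. The 3000 brightest genes averaged 9.18 to 9.30 in the knockdown arrays and 9.27 to 9.38 in the controls, and GFP shRNA replicate 1 and shRNA B replicate 1 had the extreme scores on the first principal component, which held 28.5% of the variance. Of the HEK293 markers, VIM (10.11 in knockdown, 10.18 in control), KRT8 (9.49 in knockdown, 9.73 in control), KRT18 and NEFL lay above the dim level of about 7.91, PAX2 stood at 8.10 in knockdown arrays and 8.18 in controls, and NEFM at 7.99 in knockdown arrays and 7.97 in controls. Of these 6 markers 5 were lower in knockdown, where 67.3% of all genes were lower, and the KRT8 difference was -0.25 (limma adjusted p = 0.184). The 8 measured markers of fibroblasts, endothelium, blood and hepatocytes lay between 7.92 and 8.13 in both groups.

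The promoters of 3 members were taken as examples, those that were lower in knockdown arrays at an unadjusted p under 0.05. The sequences are RefSeq's for GRCh38.p14, 250 bases before to 50 after the start site, in which 8 of the 10 members were found. SRSF9 lies at chr12:120469699-120469998, SRSF7 at chr2:38751312-38751611 and TRA2B at chr3:185937965-185938264, all on the minus strand. SRSF7 has 2 listed start sites and the one furthest along its strand is shown. Capitals mark matches, on either strand, to the TATA box (letters TATAAA), the CCAAT box, the GC box (letters GGGCGG) and the core of the cyclic AMP response element (letters TGACG), none of which contains another.
SRSF9: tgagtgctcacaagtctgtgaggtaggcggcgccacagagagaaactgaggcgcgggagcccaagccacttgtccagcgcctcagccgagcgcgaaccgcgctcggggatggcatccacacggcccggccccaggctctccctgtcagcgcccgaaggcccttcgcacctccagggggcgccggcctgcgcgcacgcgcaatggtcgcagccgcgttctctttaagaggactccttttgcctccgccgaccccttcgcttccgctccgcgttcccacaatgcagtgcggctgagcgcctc
SRSF7: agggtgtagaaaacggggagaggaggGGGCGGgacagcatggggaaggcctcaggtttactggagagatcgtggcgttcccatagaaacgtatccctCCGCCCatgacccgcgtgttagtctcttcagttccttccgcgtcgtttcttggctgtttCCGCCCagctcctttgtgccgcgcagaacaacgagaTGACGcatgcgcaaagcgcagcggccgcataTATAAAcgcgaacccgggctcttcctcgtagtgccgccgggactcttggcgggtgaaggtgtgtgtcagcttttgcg
TRA2B: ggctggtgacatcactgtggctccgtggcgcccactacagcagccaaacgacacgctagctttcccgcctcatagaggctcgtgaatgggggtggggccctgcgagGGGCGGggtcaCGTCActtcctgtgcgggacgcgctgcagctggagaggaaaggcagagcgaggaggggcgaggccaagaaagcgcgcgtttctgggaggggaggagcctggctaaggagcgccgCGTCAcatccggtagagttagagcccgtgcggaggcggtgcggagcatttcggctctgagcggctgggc
The SRSF7 promoter held 1 TATA box, 3 GC boxes and 1 cyclic AMP core, the TRA2B promoter held 1 GC box and 2 such cores, and the SRSF9 promoter held no match to any of the 4. Among all 35116 promoters of the table, 11.5% held the TATA box letters, 34.6% the CCAAT box, 45% the GC box and 24.6% the cyclic AMP core. Among the 8 member promoters, 5 held the cyclic AMP core, 4 the GC box, 2 the TATA box and 1 the CCAAT box. These matches are letters only and no binding was measured.

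None of the 10 SR protein genes passed an adjusted p of 0.05 in the limma fit of knockdown against control, where 33 of 14496 genes (0.228%) did. Of the members, 6 had a higher mean in the knockdown arrays and 4 a lower one, with a median difference of 0.05 beside -0.02 over all genes. That split depended on the setting. With probe sets under 8.5 left out, 3 members were higher and 7 lower, with a median of -0.07 beside -0.06 over all genes. With the mean of the probe sets, SRSF2, SRSF3, SRSF5 and TRA2A turned lower. In the main fit, unadjusted p was under 0.05 for 3 members, SRSF9, SRSF7 and TRA2B, all lower, against 15.2% of all genes in either direction and 12.8% lower. No member had knockdown and control arrays that failed to overlap in gene value, where 2.24% of the 14496 genes did. The plot of gene values by construct shows all 10 members, and the plot of differences sets both shRNAs side by side.

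**Figure D1:**
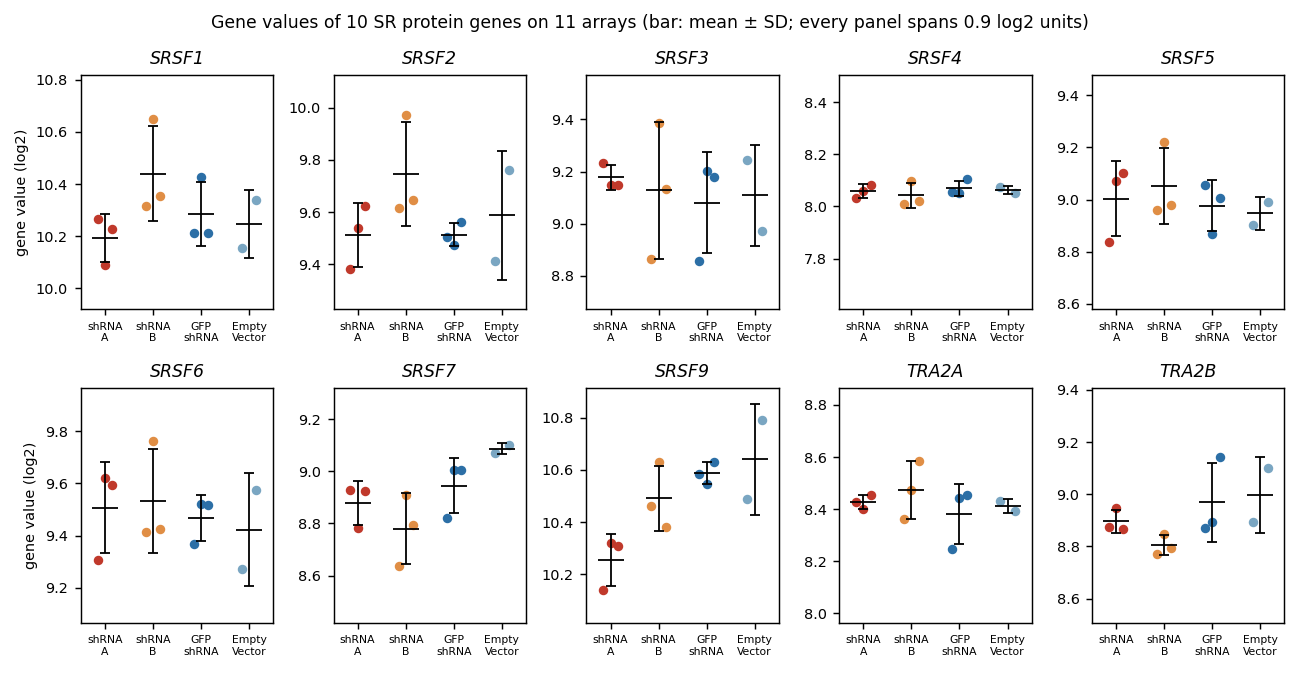
Gene values (log2) of the 10 SR protein genes on each array, by construct, with 3 arrays of shRNA A, 3 of shRNA B, 3 of the GFP shRNA and 2 of the Empty Vector. Points are arrays, bars are the mean and SD, and every panel spans the same range. SRSF9 is lowest on the 3 shRNA A arrays (10.14 to 10.32), SRSF4 lies between 8.01 and 8.10 on all arrays, and in no panel are the knockdown arrays all apart from the controls.

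SRSF9 encodes a small SR protein with a short arginine-serine tail. Its gene value was 10.14, 10.32 and 10.31 with shRNA A and 10.46, 10.63 and 10.38 with shRNA B, against 10.58, 10.55 and 10.63 with the GFP shRNA and 10.49 and 10.79 with the Empty Vector. All 3 shRNA A arrays lay below all 5 controls, and the shRNA B arrays overlapped them. The knockdown mean was 10.37 ± 0.16 (SD, n = 6) and the control mean 10.61 ± 0.12 (SD, n = 5), a difference of -0.24 with a 95% interval of -0.42 to -0.05 (limma adjusted p = 0.200). The difference was -0.35 with shRNA A (adjusted p = 0.198) and -0.12 with shRNA B (adjusted p = 0.625), where leaving out 1 array at a time gave -0.19 to -0.06. The test of shRNA B against shRNA A gave 0.24 (interval 0.02 to 0.45, adjusted p = 0.999), so a difference between the shRNAs was not called. The lower SRSF9 gene value over both shRNAs was not shared by the whole gene. On nearly every array it is the average of 2 middle probe sets, and 1 of them, 3474527, differed by -0.46. Of the 8 SRSF9 probe sets, 5 were lower in knockdown and 3 higher, with a median difference of -0.03.

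SRSF7 encodes an SR protein with a zinc knuckle beside its RNA recognition motif, and its gene carries a poison exon. Its gene value was 8.93, 8.78 and 8.92 with shRNA A and 8.64, 8.91 and 8.79 with shRNA B, against 8.82, 9.00 and 9.01 with the GFP shRNA and 9.07 and 9.10 with the Empty Vector. Every knockdown array lay below 4 of the 5 controls, and GFP shRNA replicate 1, at 8.82, lay within the knockdown range. The means were 8.83 ± 0.11 (SD, n = 6) in knockdown and 9.00 ± 0.11 (SD, n = 5) in control, a difference of -0.17 with an interval of -0.31 to -0.03 (limma adjusted p = 0.220). It was -0.12 with shRNA A (adjusted p = 0.609) and -0.22 with shRNA B (adjusted p = 0.247). Of its 21 probe sets, 8 had a mean under 8.5, close to the dim level. With those left out, an alternative chosen after the data were seen, SRSF7 passed at -0.30 (adjusted p = 0.0263), among 222 of 6591 genes (3.37%), and with shRNA B at -0.39 (adjusted p = 0.0427).

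SRSF2, also known as SC35, encodes a protein that marks nuclear speckles. Its gene value was 9.38, 9.54 and 9.62 with shRNA A and 9.62, 9.97 and 9.65 with shRNA B, against 9.50, 9.47 and 9.56 with the GFP shRNA and 9.41 and 9.76 with the Empty Vector. The highest value was shRNA B replicate 2 and the lowest shRNA A replicate 1, and the groups overlapped. The difference was 0.09 (interval -0.11 to 0.28, limma adjusted p = 0.696) over both shRNAs, -0.03 with shRNA A and 0.20 with shRNA B (adjusted p = 0.401). The sign over both shRNAs turned to -0.08 when the mean of the probe sets replaced the median. With the 1 SRSF2 probe set under 8.5 left out, SRSF2 passed with shRNA B at 0.51 (adjusted p = 0.0214), beside 1.44% of genes in that comparison, whereas the mean of its probe sets gave -0.02 and leaving out 1 array at a time gave 0.09 to 0.27, neither of which passed. On the shRNA B arrays the median then fell on 1 probe set, 3771804, which was 0.59 higher with shRNA B than in controls. The last 7 probe sets of SRSF2 in order of number were all lower with shRNA B.

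SRSF6, also known as SRp55, had gene values of 9.31, 9.62 and 9.59 with shRNA A and 9.41, 9.76 and 9.42 with shRNA B, against 9.37, 9.52 and 9.52 with the GFP shRNA and 9.27 and 9.57 with the Empty Vector. Each construct spread over more than the difference between groups, which was 0.07 (interval -0.11 to 0.25, limma adjusted p = 0.737). Leaving out 1 array at a time gave 0.02 to 0.11 for SRSF6, and leaving out its probe sets under 8.5 gave 0.00087. SRSF1, the founding member also called ASF/SF2, averaged 10.32 ± 0.19 (SD, n = 6) in knockdown and 10.27 ± 0.11 (SD, n = 5) in control arrays, a difference of 0.05 (limma adjusted p = 0.843). It was 0.17 higher with shRNA B and 0.08 lower with shRNA A than in controls, and the test of shRNA B against shRNA A gave 0.25 (interval 0.02 to 0.47, adjusted p = 0.999). Without shRNA B replicate 2, at 10.65 the highest array, the difference over both shRNAs was -0.02.

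SRSF3, the smallest of the classical SR proteins, averaged 9.15 ± 0.17 (SD, n = 6) in knockdown and 9.09 ± 0.17 (SD, n = 5) in control arrays. Its difference of 0.06 (limma adjusted p = 0.788) turned to -0.08 when only the 18 probe sets of its largest run of numbers were kept, and leaving out 1 array at a time gave 0.0021 to 0.12. The 3 left out carry numbers far from the rest, and SRSF6 likewise has 8 of 21 in a second run. Whether these match near-identical copies elsewhere in the genome was not analysed here, so values of those probe sets are uncertain. SRSF5, a member with paired RNA recognition motifs, averaged 9.03 ± 0.13 (SD, n = 6) in knockdown and 8.97 ± 0.077 (SD, n = 5) in control arrays (difference 0.06, limma adjusted p = 0.694). Leaving out its 9 probe sets under 8.5 turned the SRSF5 difference to -0.19, which did not pass (adjusted p = 0.209).

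SRSF4, also known as SRp75 and the member with the longest arginine-serine tail, averaged 8.05 ± 0.036 (SD, n = 6) in knockdown and 8.07 ± 0.022 (SD, n = 5) in control arrays. This gene value says little about the transcript, because 16 of the 26 probe sets behind it lay under 8.5. The difference of -0.02 (limma adjusted p = 0.741) became -0.15 without those probe sets (adjusted p = 0.214) and 0.09 with the floor at the 75th percentile of the table. The bright probe sets of SRSF4 are described below.

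TRA2B and TRA2A encode the homologues of the fly sex determination factor Transformer-2, and TRA2B controls its own poison exon. TRA2B averaged 8.85 ± 0.062 (SD, n = 6) in knockdown and 8.98 ± 0.13 (SD, n = 5) in control arrays, a difference of -0.13 with an interval whose upper end lay just below 0 (limma adjusted p = 0.319). The 3 shRNA B arrays, at 8.77, 8.85 and 8.80, lay below the lowest control, 8.87, as did shRNA A replicate 3 by less than 0.01, and the other 2 shRNA A arrays lay within the control range. TRA2A averaged 8.45 ± 0.076 (SD, n = 6) in knockdown and 8.39 ± 0.085 (SD, n = 5) in control arrays (difference 0.06, limma adjusted p = 0.632). The TRA2A sign turned with the mean of the probe sets (-0.02) and without probe sets under 8.5 (-0.08). Without its 11 probe sets under 8.5, the TRA2B difference was -0.07 over both shRNAs (limma adjusted p = 0.640) and 0.000633 with shRNA A. SRSF9, SRSF7 and TRA2B kept a negative difference over both shRNAs in all 22 alternatives run for each. Of these, 11 only left out 1 array.

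**Figure D2:**
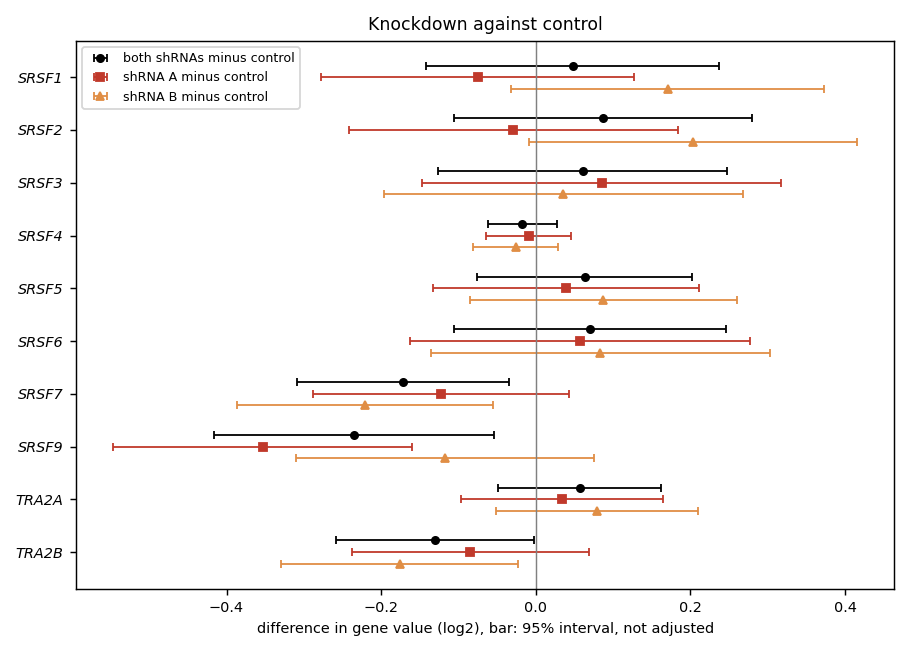
Difference in gene value (log2) from the 5 control arrays for both Tat-SF1 shRNAs together, shRNA A and shRNA B, with unadjusted 95% intervals. The intervals over both shRNAs lie below 0 for SRSF9 (-0.24), SRSF7 (-0.17) and TRA2B (-0.13) and cross 0 for the other 7 members.

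In the comparisons of single constructs no member passed either. Called genes in all were 1 with shRNA A (0.0069%), 9 with shRNA B (0.0621%), 0 when shRNA B was set against shRNA A (0%) and 1 when the GFP shRNA was set against the Empty Vector (0.0069%), by limma adjusted p. Unadjusted p fell under 0.05 for 1 member with shRNA A, 2 with shRNA B, 2 between the shRNAs and 0 between the control constructs, against 10.8%, 13.3%, 4.42% and 4.48% of all genes. The shRNA A and shRNA B comparisons share the control arrays. Over the 11 arrays the SD of a member's gene value ran between 0.03 (SRSF4) and 0.18 (SRSF9), where the median over all genes was 0.065.

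As a description over the same 11 arrays, SRSF2 and SRSF6 had the highest correlation among the members (Pearson r = 0.78), followed by SRSF2 with SRSF5 and SRSF5 with SRSF6 (0.76 each). SRSF1 and TRA2B had the lowest, at -0.25. The genes whose values tracked the mean of the 10 members most closely were SLC61A1 (r = 0.94), CWC15 (0.91), TIMM23 (0.90), SDHC (0.88) and CALR3 (0.87). CALR3 and CWC15 lay near the dim level, at 7.93 and 8.03 in knockdown arrays. All values in such a correlation come from the same arrays and share their brightness.

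Within genes, none of the 200 member probe sets passed in exon index, knockdown against control, by limma adjusted p, where 7 of 220978 probe sets (0.00317%) did. At an unadjusted p under 0.05 there were 46 (23%), 15 higher and 31 lower, against 11.8% of all probe sets. With shRNA A there were 19 (9.5%) against 9.47%, and with shRNA B 48 (24%) against 10.3%, and 0 probe sets of the array passed the adjusted threshold in either (0%). Probe sets of 1 gene share the median that is subtracted, so these are not independent. The shares are not matched for brightness either, since 96 of the 200 member probe sets had a mean under 9, against 176558 of 220978. Knockdown and control arrays failed to overlap in index for 6 member probe sets (3%), against 1.45% of all probe sets. Of the 6, 4 belong to SRSF9, 1 to SRSF4 and 1 to SRSF7.

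**Figure D3:**
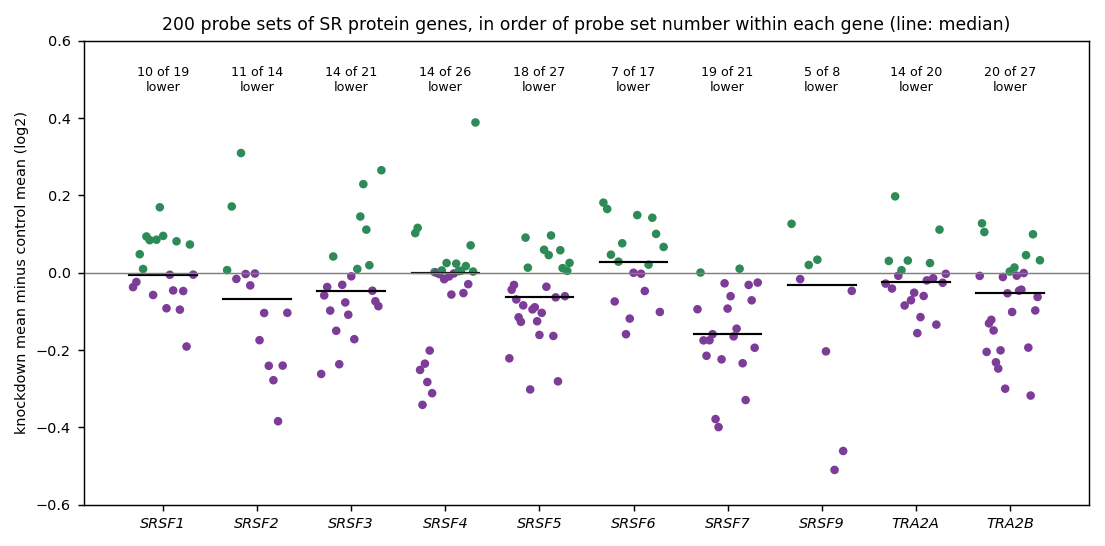
Knockdown mean minus control mean (log2) of each of the 200 used probe sets, before the gene value is subtracted, in order of probe set number within each gene. Horizontal lines are medians. Of the 200, 132 are lower in knockdown, with 19 of 21 in SRSF7 and 7 of 17 in SRSF6.

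Before the gene value is subtracted, 132 of the 200 member probe sets (66%) had a lower knockdown mean, against 61.6% of all probe sets used. The shares were 19 of 21 in SRSF7, 11 of 14 in SRSF2, 20 of 27 in TRA2B, 14 of 20 in TRA2A, 18 of 27 in SRSF5, 14 of 21 in SRSF3, 5 of 8 in SRSF9, 14 of 26 in SRSF4, 10 of 19 in SRSF1 and 7 of 17 in SRSF6. SRSF7 was thus the member lower along most of its probe sets, by up to -0.40, while in SRSF9 and SRSF4 the lowest ones stood together, and the other 8 lower probe sets of SRSF4 differed by no more than -0.06. Brighter probe sets were lower over the whole table too, with a median of -0.05 for all 30561 with a mean between 9 and 10 and -0.10 for the 49 members in that range, of which 63.3% were lower against 64.7% of all. Between 10 and 11 the median was -0.05 both for the 34 members and for all 9495. What the dimmer knockdown arrays add to these differences was not tested.

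In SRSF9 the 2 lowest of 8 probe sets were neighbours, the sixth (3474526) and the seventh (3474527) in order of number. Probe set 3474527 had log2 values of 9.56, 9.76 and 9.67 with shRNA A and 10.09, 10.34 and 10.10 with shRNA B, against 10.44, 10.26 and 10.38 with the GFP shRNA and 10.25 and 10.57 with the Empty Vector. The shRNA A arrays were all below the controls and shRNA B replicate 2 lay among them. Probe set 3474526 had 9.02, 8.92 and 8.88 with shRNA A and 8.87, 8.80 and 8.84 with shRNA B, against 9.45, 9.34 and 9.29 with the GFP shRNA and 9.11 and 9.80 with the Empty Vector. All 6 knockdown arrays were below all 5 controls. The mean of the pair was 9.40 ± 0.12 (SD, n = 6) in knockdown and 9.89 ± 0.19 (SD, n = 5) in control arrays, with array ranges of 9.27 to 9.57 in knockdown and 9.68 to 10.18 in control arrays. The pair was picked after its values were seen and carries no test. The fifth probe set, 3474522, next to the pair, differed by -0.20, the last, 3474528, by -0.05 and the first 4 by -0.02 to 0.13.

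The exon index of SRSF9 follows from this. Probe set 3474512, the first, had an index of -0.61, -0.72 and -0.60 with shRNA A and -0.86, -0.76 and -0.92 with shRNA B, against -1.12, -1.15 and -1.05 with the GFP shRNA and -1.05 and -1.15 with the Empty Vector. The groups did not overlap, and its index difference of 0.36 ± 0.058 (SE) had the smallest adjusted p of any member probe set (limma adjusted p = 0.0775). Its own log2 value differed by only 0.13, so most of the index difference was the lower gene value. Probe sets 3474513 (0.22) and 3474527 (-0.23) are the middle ones in brightness. Their average is the gene value on nearly every array, and their indices are close to mirror images. Before the gene value was subtracted, 3474527 differed by -0.46 and 3474513 by far less, so the lower gene value came mainly from 3474527. Measured against the other probe sets of the gene instead, these 2 passed with shRNA A, among 5 probe sets in all (0.00226%). On nearly every array the median of the others was then the other of these 2, so their passing is 1 result and not 2. Probe set 3474526 had the most negative SRSF9 index difference, -0.27 (adjusted p = 0.363).

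SRSF4 held 6 consecutive lower probe sets, the third to the eighth of 26 (2403743 to 2403753). Their mean on each array was 9.99, 9.85 and 9.94 with shRNA A and 9.75, 9.99 and 9.83 with shRNA B, against 10.12, 10.24 and 10.12 with the GFP shRNA and 10.12 and 10.22 with the Empty Vector. All knockdown arrays lay below all controls, with means of 9.89 ± 0.098 (SD, n = 6) in knockdown and 10.16 ± 0.061 (SD, n = 5) in control arrays. Each of the 6 was lower with both shRNAs, by -0.20 to -0.34 over the 2 together. The stretch was chosen after its values were seen and is not tested. Over all probe sets with a mean between 9 and 10, and over those between 10 and 11, the median difference was -0.05, with 64.7% and 62.0% lower.

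Within that stretch, SRSF4 probe set 2403753 had an index of 2.69, 2.72 and 2.74 with shRNA A and 2.59, 2.59 and 2.65 with shRNA B, against 2.94, 3.00 and 2.99 with the GFP shRNA and 2.87 and 2.98 with the Empty Vector. Its arrays did not overlap between groups (difference -0.29 ± 0.057, SE, limma adjusted p = 0.108). Probe set 2403744 had the most negative index difference of SRSF4, -0.32 (adjusted p = 0.208), and with the floor at the 75th percentile of the table it passed at -0.43 (adjusted p = 0.0480, 0.0109% of probe sets called). The last SRSF4 probe set, 2403783, went the other way, with an index of 1.13 ± 0.31 (SD, n = 6) in knockdown and 0.72 ± 0.28 (SD, n = 5) in control arrays (difference 0.41, adjusted p = 0.348). Among the bright SRSF4 probe sets elsewhere in the gene, 2403742 had 10.72 in knockdown and 10.60 in control arrays, and 2403760 had 10.05 in knockdown and 10.03 in control arrays. Subtracting the SRSF4 gene value, which lies near the dim level, changed little. The difference was -0.31 before and -0.29 after for 2403753, and -0.34 before and -0.32 after for 2403744. The SRSF4 index by itself therefore does not tell a change within the gene from a change of the whole transcript.

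SRSF2 also differed along its length. The first 7 of its 14 probe sets averaged 10.04 ± 0.19 (SD, n = 6) in knockdown and 9.98 ± 0.11 (SD, n = 5) in control arrays, while the last 7 averaged 9.83 ± 0.11 in knockdown and 10.05 ± 0.23 in control arrays. Array ranges overlapped in both stretches, 9.72 to 9.97 in knockdown and 9.85 to 10.45 in control arrays for the last 7, of which every one was lower with both shRNAs. The top of that control range was 1 array, Empty Vector replicate 2, and the other controls lay between 9.846 and 10.045. These stretches too were chosen after their values were seen. In the first 7, shRNA B was above the control mean in all and shRNA A in 2. The fourth, 3771804, had log2 values of 9.44, 9.59 and 9.69 with shRNA A and 10.03, 10.19 and 10.18 with shRNA B, against 9.51, 9.59 and 9.71 with the GFP shRNA and 9.42 and 9.50 with the Empty Vector. Only its shRNA B arrays lay above the controls, and its index difference with shRNA B was 0.39 (limma adjusted p = 0.226). The twelfth, 3771814, had the most negative index difference of any member, -0.47 ± 0.15 (SE, adjusted p = 0.253). With probe sets under 8.5 left out, 3771808 passed in exon index with shRNA B, among 7 probe sets (0.00938%). Its own log2 value differed by only -0.21 with shRNA B, while the SRSF2 gene value subtracted in that setting was 0.51 higher. Most of that index difference was therefore the higher gene value.

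**Figure D4:**
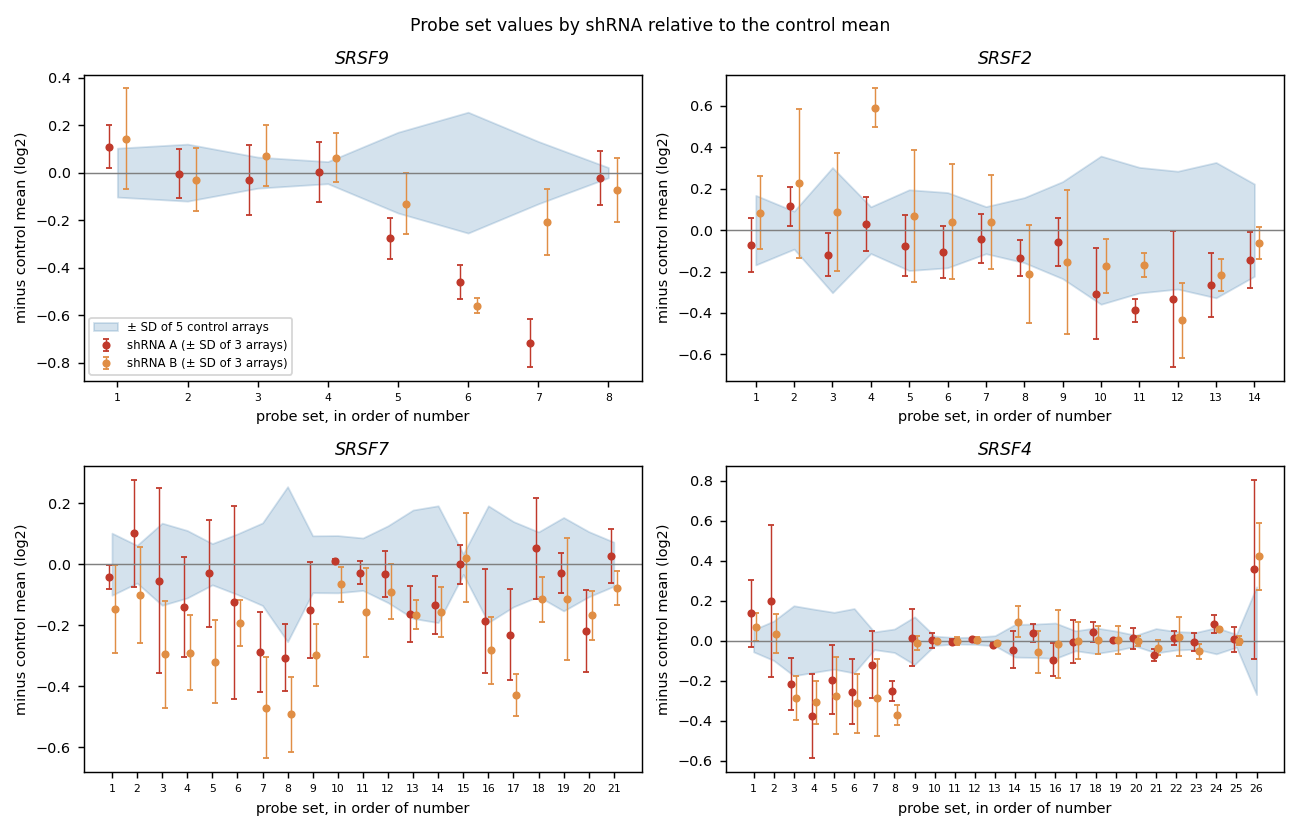
Probe set values (log2) minus the control mean, in order of probe set number, for SRSF9, SRSF2, SRSF7 and SRSF4. Points are the mean and SD of 3 arrays for shRNA A and for shRNA B, and the band is the SD of the 5 control arrays. SRSF9 dips at its sixth and seventh probe sets, SRSF4 between the third and the eighth, SRSF2 over its last 7, and SRSF7 lies below 0 over most of its length.

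SRSF7 was lowest at its seventh and eighth probe sets, 2548982 and 2548984, by -0.38 and -0.40 before the gene value was subtracted. The index of 2548982 was 0.67, 0.62 and 0.43 with shRNA A and 0.46, 0.52 and 0.49 with shRNA B, against 0.68, 0.76 and 0.85 with the GFP shRNA and 0.72 and 0.68 with the Empty Vector. The groups stood apart by a small margin, 0.67 against 0.68 (difference -0.21, limma adjusted p = 0.167). SRSF7 probe set 2548991, which has a mean near 8.36 and differed by 0.01, had the most positive index difference, 0.18 (adjusted p = 0.312).

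**Figure D5:**
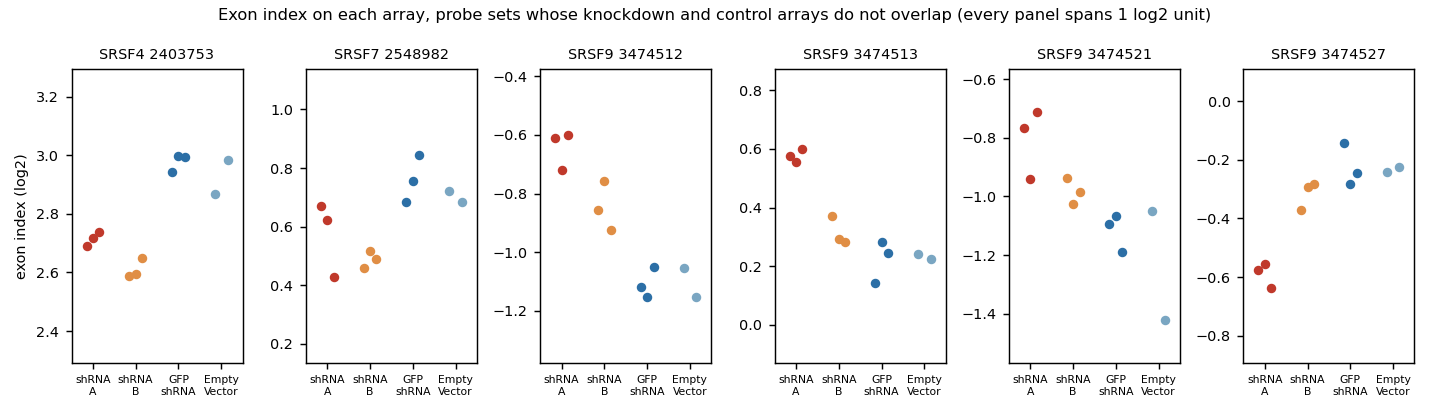
Exon index (log2) on each array for the 6 member probe sets whose knockdown and control arrays do not overlap, by construct. Points are arrays and every panel spans 1 log2 unit. For SRSF4 2403753 the knockdown arrays lie between 2.59 and 2.74 and the controls between 2.87 and 3.00, while for SRSF9 3474513 and 3474527 the shRNA B arrays lie next to the controls.

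In the other members the extreme index differences did not pass and their arrays overlapped. TRA2B probe set 2709078 had 0.26 (limma adjusted p = 0.258) and 2709113 had -0.19 (adjusted p = 0.255). TRA2A probe set 3041535 had -0.21 (adjusted p = 0.315) and 3041523 had 0.14 (adjusted p = 0.590). For SRSF5 they were -0.36 at 3542224 (adjusted p = 0.238), where Empty Vector replicate 2 stood high at 1.24, and 0.03 at 3542234. At an unadjusted p under 0.05, SRSF5 had 7 of 27 probe sets lower in index and 0 higher, against 11.8% of all probe sets in either direction. The SRSF5 gene value subtracted from each was 0.06 higher in knockdown, which lowered all its index differences alike. Before subtraction the median difference of its probe sets was -0.06. SRSF3 had -0.32 at 2905122 (adjusted p = 0.315) and 0.20 at 3322903, one of the probe sets outside its main run (adjusted p = 0.575). SRSF1 had -0.24 at 3764139 (adjusted p = 0.277) and 0.12 at 3764126. SRSF6 had -0.23 at 3886052 and 0.11 at 3747328, and no SRSF6 probe set had an unadjusted p under 0.05. Which of these probe sets lie in poison exons was not analysed here, since the files pair them with no coordinates.

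Between the shRNAs (shRNA B against shRNA A), 13 member probe sets had an unadjusted p under 0.05 in exon index, against 5.52% of all, and between the GFP shRNA and the Empty Vector 6 did, against 4.48%. No probe set of the array passed by limma adjusted p in either comparison (0%).

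Genes that act around the SR proteins were followed in 4 lists, none of whose genes passed by limma adjusted p. Of the kinases, phosphatase and import factor that act on the arginine-serine tail, 10 of 11 were measured and 7 were lower, with a median difference of -0.04 against -0.02 over all genes. CLK3, a nuclear SR protein kinase, had 8.25 ± 0.045 (SD, n = 6) in knockdown and 8.44 ± 0.13 (SD, n = 5) in control arrays (adjusted p = 0.121), and SRPK3, a muscle-enriched kinase, had 9.47 ± 0.23 (SD, n = 6) in knockdown and 9.29 ± 0.14 (SD, n = 5) in control arrays (adjusted p = 0.421). Of 14 other SR and SR-related genes, 11 were lower (median -0.03), with -0.13 for SRSF8 and -0.11 for SRSF12. Of 10 nonsense-mediated decay factors, which remove transcripts with poison exons, 7 were measured and 6 were lower (median -0.05). SMG9, a regulator of the decay kinase SMG1, had -0.13 (adjusted p = 0.238) and the helicase UPF1 had -0.12 (adjusted p = 0.306). Unadjusted p was under 0.05 for 1 of 10, 1 of 14 and 2 of 7 genes of these lists, against 15.2% of all genes, and 67.3% of all genes were lower.

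Genes with exons known to be regulated by SR proteins were the fourth list, 18 of 20 measured and 13 lower, with a median of -0.04, where 67.3% of all genes were lower. LMNA, which encodes lamin A and C, and PKM, which encodes pyruvate kinase, both had -0.16 (adjusted p = 0.195 and 0.296), and 4 of the 18 had an unadjusted p under 0.05, against the 15.2% of all genes. None of their 442 probe sets passed in exon index by limma adjusted p, and 62 (14.03%) had an unadjusted p under 0.05, against the 11.8% of all probe sets. The largest index difference was in BCLAF1, which encodes an RNA-binding protein and transcription regulator. Its probe set 2975684 had an index of 1.07 ± 0.16 (SD, n = 6) in knockdown and 0.61 ± 0.12 (SD, n = 5) in control arrays, a difference of 0.46 (adjusted p = 0.0917). PKM probe set 3631977 had -0.30 ± 0.18 (SD, n = 6) in knockdown and -0.69 ± 0.25 (SD, n = 5) in control arrays, a difference of 0.39 (adjusted p = 0.226).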

How the data were processed

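Total RNA of 11 T-REx-293 cultures was measured on exon arrays. The deposited table holds log2 values of 1399022 probe sets. How these log2 values were background-corrected and normalized, with which software and on which build, is not given in the sources used here, and the authors' quality control removed 1 array, per the series design. A change near the dim level, 7.91, may be compressed by that processing.

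Gene symbols came from the platform's annotation, in which 355799 probe sets had 1 symbol, 15195 several and 1028028 were not listed. Of 19536 symbols, 16450 were current, 2965 were updated through RefSeq and 121 were kept. Probe sets were used if they had 1 symbol, were estimated on all arrays and averaged at least the table's median (7.91), and a gene needed at least 4. Gene values are medians.

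Differences were fitted in R 4.3.3 with limma 3.58.1 (lmFit and eBayes with a trend) over all 14496 genes or all 220978 probe sets and adjusted by the Benjamini-Hochberg method, with 0.05 as the threshold. The scripts were tested on simulated data. The number of arrays limits the precision. Same-numbered replicates of different constructs had residual correlations from -0.147 to 0.268 (median 0.0406, 5 of 15 over 0.1). Those with different numbers had -0.268 to 0.217 (median -0.0213, 6 of 30 over 0.1). With so few pairs this does not settle whether the numbers pair the arrays, and the main fits treated the arrays as unpaired.

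The members and lists were chosen with earlier results of these data known. By rule, values on every array are given for the 2 members with the largest positive and the 2 with the largest negative difference. Of each member's probe sets, the rule named those with the most positive and the most negative index difference, and of each list up to 2 genes. The probe sets that did not overlap, the stretches within SRSF9, SRSF4 and SRSF2, and SRSF2 probe set 3771808 were named after their values were seen. Alternatives changed the floor, the gene summary, the normalization, the moderation, the blocks, the controls and the arrays left out.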

Additional observations from a re-analysis of the deposited data

Results flagged for a closer look

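Of 60 groups of arrays examined for a single far value among the members and their named probe sets, 4 held one, where chance gives about 1 in 20. Among the controls, the TRA2A gene value of GFP shRNA replicate 1 was 8.247, below the other 4 controls at 8.39 to 8.45, and this array stood at an end of the first principal component. SRSF4 probe set 2403744 had 2 such arrays. Its exon index was 0.5592 on shRNA A replicate 2, against 0.836 to 0.987 on the other knockdown arrays, and 0.8551 on GFP shRNA replicate 3, against 1.18 to 1.30 on the other controls. SRSF3 probe set 2905122 had an index of 3.283 on shRNA B replicate 1, against 2.83 to 2.96 on the other knockdown arrays, and this array stood at the opposite end of that component.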

How the results depend on the processing

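No count of members or list genes that passed changed when any 1 array was left out, each ranging from 0 to 0. A replicate block also gave 0 members passed in gene value (adjusted p = 0.204 for SRSF9) and 0 in exon index. The counts changed in 4 settings, and the cause was not tested. A floor of 8.5, chosen after seeing the data, gave 1 gene (SRSF7) over both shRNAs, 2 genes (SRSF2 and SRSF7) and 1 probe set (SRSF2 3771808) with shRNA B, and 2 list genes (MKNK2 and PNN). The 75th percentile floor gave 1 probe set over both shRNAs (SRSF4 2403744), the index against the other probe sets gave 2 with shRNA A (SRSF9 3474513 and 3474527), and the mean of probe sets gave 1 list gene (MKNK2). The 2 of SRSF9 were measured against each other on nearly every array and amount to 1 result. With the floor of 8.5, most of the index difference of SRSF2 3771808 was the higher SRSF2 gene value. Signs of small differences turned as follows. With the mean of probe sets, SRSF2 had -0.0779 over both shRNAs and -0.0205 with shRNA B, SRSF3 -0.0297, SRSF5 -0.0654 and TRA2A -0.0204. With the 75th percentile floor, SRSF1 had -0.0072, SRSF3 -0.0519 and SRSF4 0.0891, and with no floor SRSF5 had -0.00342. With the floor of 8.5, SRSF3 had -0.0472, SRSF5 -0.188, TRA2A -0.0758 and TRA2B, with shRNA A, 0.000633. With a block for the array-name suffix, SRSF1 had -0.0921, SRSF2 -0.0836, SRSF5 -0.0107 and the index of TRA2A 3041523 -0.00753. The largest run of numbers gave -0.0795 for SRSF3, and the GFP shRNA as the only control gave 0.000844 for SRSF2 with shRNA A. Leaving out 1 array gave -0.0189 to 0.093 for SRSF1, -0.0836 to 0.0375 for SRSF2 with shRNA A, and -0.0128 to 0.114 for the index of SRSF5 3542234. The suffix block rests on the 2 knockdown arrays without the suffix, both of shRNA A. Dim probe sets bound what SRSF4, TRA2A and TRA2B can show, with 16, 10 and 11 under 8.5.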
